A study of Sus scrofa with 23 samples.

Results

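The 8 genes described here encode enzymes and a carrier of renal gluconeogenesis and of ammonia handling. They are PCK1, PCK2, FBP1, G6PC, SLC37A4, PC, GLUD1 and GLUL. They were chosen by symbol, and all 8 were found among the 26687 symbols of the transcript table and passed the low-count filter that left 20921 genes. RNA was measured in kidney cortex of 23 newborn pigs by sequencing total RNA after ribosomal RNA depletion. The groups were 11 pigs labelled CFTR-/- (CF), 6 labelled CFTR+/- (HET) and 6 labelled CFTR+/+ (WT), without any treatment in the labels. The WT and HET libraries together form the 12 non-CF libraries with which CF is compared. The piglets came from matings of CFTR+/- animals, so the CFTR genotype was carried in the germline. Every library came from a different pig, whose sex and litter are not in the labels.

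The kidney, like the liver, makes glucose from lactate, glutamine and glycerol, and does so in the proximal tubule. Glutamine entering the pathway releases ammonium, which carries acid into the urine, and its carbon skeleton leaves the mitochondrion to become glucose. Pyruvate carboxylase (PC) makes oxaloacetate from pyruvate, and the phosphoenolpyruvate carboxykinases of the cytosol (PCK1) and the mitochondrion (PCK2) turn oxaloacetate into phosphoenolpyruvate. Fructose-1,6-bisphosphatase (FBP1) bypasses the committed step of glycolysis, the glucose-6-phosphate carrier (SLC37A4) brings the last intermediate into the endoplasmic reticulum, and glucose-6-phosphatase (G6PC) releases glucose. Glutamate dehydrogenase (GLUD1) frees ammonium from glutamate, and glutamine synthetase (GLUL) takes it up again.

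Libraries held 32901281 to 52952273 estimated counts. All 12 proximal tubule markers were detected in every library, with a summed level of 1280 to 2400 TPM, an abundance per unit of transcript length scaled to a constant sum per library. CFTR RNA ran opposite to a loss of transcript. It was 2.26 ± 0.794 CPM (counts scaled to library size, with SD, n = 6) in WT, 12.6 ± 2.76 (n = 6) in HET and 19.9 ± 3.21 (n = 11) in CF libraries. Its log2 fold change was 3.14 for CF against WT (edgeR adjusted p = 1.23e-10) and 2.47 for HET against WT (adjusted p = 5.07e-08). The groups are named below as the libraries were labelled, so the direction of each difference rests on these labels. Whether the labels match the genotypes was not tested. On the first axis of a multidimensional scaling plot, with 17.2% of the variance, 10 libraries lay at -0.999 to -0.451 and 13 at 0.191 to 0.913, with 5 of 11 CF, 1 of 6 HET and 4 of 6 WT libraries on the negative side. The Y-linked EIF1AY was at 0 to 0.0961 CPM in those 10 and at 15.1 to 26.0 CPM in the 13 others. With EIF1AY as a covariate, 0 members were called between CF and non-CF libraries, where 0.215% of all genes were. PC gave 0.60 (edgeR adjusted p = 0.0742) in that fit, and the contrasts between single labels were not fitted with this covariate. The libraries also separated by pig number on the second axis, which held 10.6%. The 13 earlier-numbered pigs (numbers 1 to 6 and 12 to 18) lay at -0.80 to 0.01 on it and the 10 later-numbered pigs at 0.33 to 0.73. Both sets hold all 3 labels. Values within each set are given for part of the results, and results given without them can also differ between the sets. In bulk cortex, fewer cells of a type and less RNA per cell cannot be told apart.

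No member passed the adjusted threshold between CF and non-CF libraries. By the quasi-likelihood test of edgeR, adjusted over all genes by the Benjamini-Hochberg method, 0 of the 8 members had an adjusted p under 0.05, where 0.349% of all genes tested did. PC was the 1 member with an unadjusted p under 0.05, a level that 13.7% of all genes reached. DESeq2 called 1 member, PC, and 2.32% of its genes. Of the members, 5 had higher and 3 lower fitted values in CF libraries, with a median log2 fold change of 0.14 against -0.00 over all genes.

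Per unit of length, G6PC was the highest member. Its level was 600 ± 178 TPM (SD, n = 23), above FBP1 in 23 of 23 libraries. FBP1 followed with 235 ± 45.9 TPM, GLUD1 with 207 ± 35.6, PCK1 with 175 ± 123, GLUL with 136 ± 15.8, SLC37A4 with 115 ± 26.3, PCK2 with 93.3 ± 19.1 and PC with 86.3 ± 27.2. PCK1 exceeded GLUL in only 14 of 23 libraries and PCK2 exceeded PC in 17, so those neighbours in the order did not differ beyond their spread. The order also changed with the label. In CF libraries the mean of PC (104 TPM) was above that of PCK2 (98.3) and the mean of PCK1 (210) above that of GLUD1 (198), while in WT libraries PCK1 (121) was below GLUL (137) and SLC37A4 (122). PCK2 exceeded PC in 11 of 12 non-CF and in 6 of 11 CF libraries. Among all symbols ranked by mean TPM, the members stood between position 89 (G6PC) and 707 (PC). The transcript models of G6PC and PC contain no untranslated sequence, so their TPM rest on the coding exons.

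**Figure D1:**
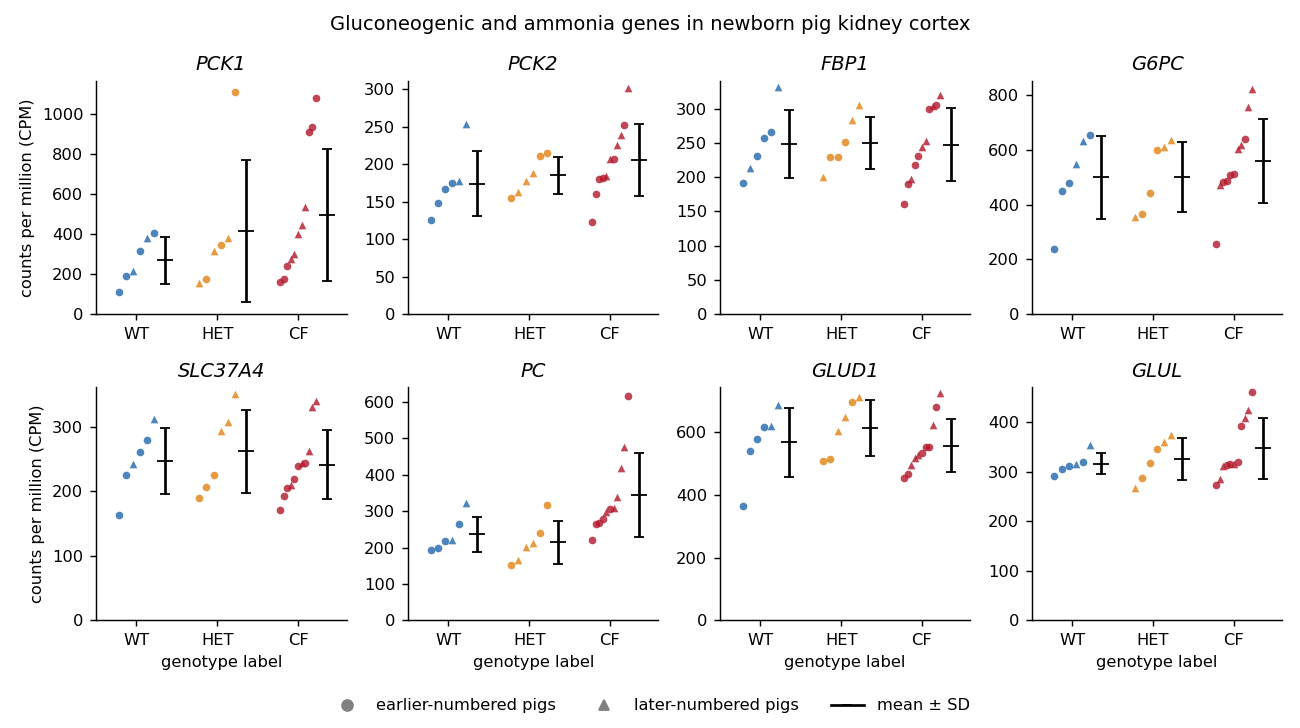
CPM of each of the 8 genes (vertical axes, linear from 0) in the libraries labelled WT, HET and CF, with 1 point per pig. Circles are earlier-numbered and triangles later-numbered pigs, and the bar beside each group is the mean ± SD; the groups overlap in every panel, PCK1 has 4 libraries above 900 CPM, and all 11 CF libraries of PC lie above the non-CF median of 216 CPM.

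PC, which opens the route from pyruvate to glucose, was the member with the largest fitted difference between CF and non-CF over all 23 libraries. For PCK1 the fitted difference from WT was larger, and so was that between CF and non-CF in earlier-numbered pigs (0.628 against 0.525). By edgeR neither gene was called in these contrasts. PC lies on chromosome 2 at chr2:5566608-5587797 (Sscrofa11.1, plus strand) and has 1 annotated transcript of 23 exons. In CF libraries it ranged from 221 to 617 CPM with a median of 305, in HET libraries from 152 to 317 with a median of 208, and in WT libraries from 193 to 322 with a median of 220. All 11 CF libraries were above the non-CF median and 4 were above the highest non-CF library, while the other 7 lay within the non-CF range. The log2 fold change of CF against non-CF was 0.61 (SE 0.151, 95% confidence interval 0.30 to 0.92), with an edgeR adjusted p of 0.0636 and an unadjusted p of 0.00041.

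The fitted difference in PC had the same direction against both control labels and in both sets of pigs. It was 0.54 against WT (SE 0.189, edgeR adjusted p = 0.177) and 0.68 against HET (SE 0.19, adjusted p = 0.275), while HET against WT was -0.14 (SE 0.21). On the same scale it was 0.52 (SE 0.204, edgeR adjusted p = 0.306) within the earlier-numbered and 0.71 (SE 0.234, adjusted p = 0.14) within the later-numbered pigs, and the difference between these effects did not pass edgeR's interaction test (difference 0.18, interval -0.46 to 0.82, unadjusted p = 0.556, adjusted p = 0.889). The call depended on the method. DESeq2 gave an adjusted p of 0.00762, the later-numbered pigs alone gave 0.0459 in edgeR (where 2.27% of all genes were called) and the earlier-numbered pigs alone 0.455 (0% called), and an exact two-sided Mann-Whitney U test gave an unadjusted p of 0.00218 and an adjusted p of 0.129. Leaving out CF4 or HET15 also brought the adjusted p of edgeR under the threshold, to 0.0414 and 0.0378. Of all genes, 0.969% and 0.934% were called in those fits, against 0.349% with all libraries. In the other 21 of 23 fits with 1 library left out, the adjusted p of PC stayed above the threshold, up to 0.131 without CF7. The log2 fold change of PC ran from 0.49 to 0.66 over all 23.

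**Figure D2:**
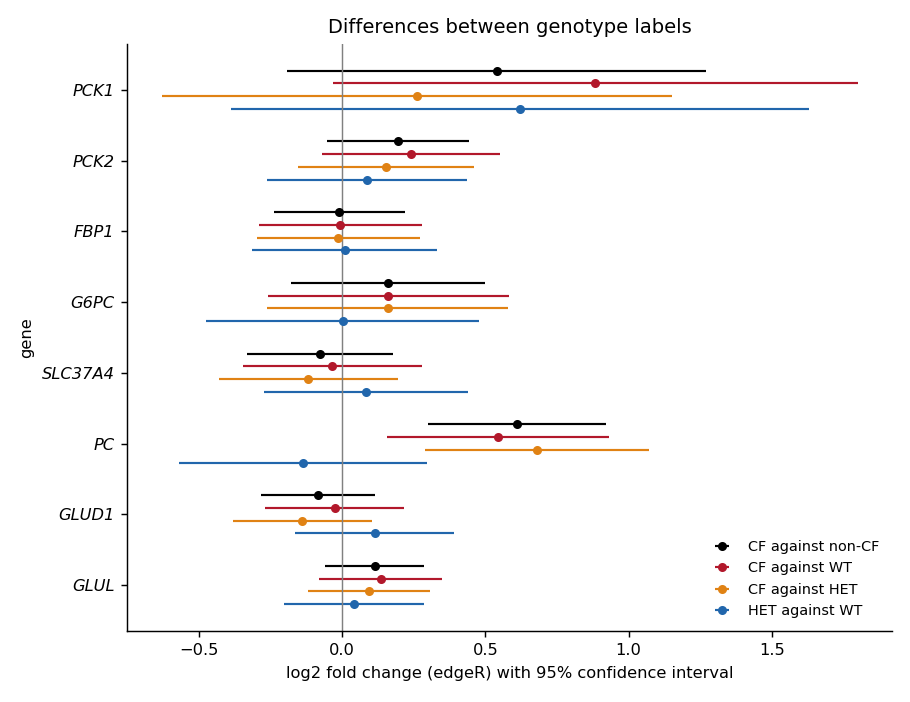
Log2 fold change (horizontal axis) of each of the 8 genes in 4 contrasts between genotype labels, as points with the 95% confidence interval of edgeR's fit. The interval of PC lies above 0 in each contrast with CF and spans 0 for HET against WT, and the intervals of PCK1 are the widest.

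RCE1, a protease gene of the CAAX processing pathway and PC's neighbour, had the pattern most like that of PC (r = 0.91 over 23 libraries). It lies at chr2:5587853-5595408 on the minus strand, so that the ends of both genes face each other, 55 bases apart. Of its 13 annotated models, the 4 that end nearest to PC held 17.5 ± 4.16 TPM (SD, n = 23) and followed PC with r = 0.95 and rho = 0.95, within both sets of pigs (0.90 and 0.99). The other 9 models held 6.68 ± 0.95 TPM and gave r = -0.42, with -0.34 in earlier-numbered and -0.84 in later-numbered pigs. This split of the models was made after the values had been seen and is given without a test. The library kit keeps strand, but whether the counting used it is not given in the sources used here, and whether reads of one gene were counted for the other was not tested. RCE1 itself differed by a log2 fold change of 0.31 (SE 0.0897, edgeR adjusted p = 0.102) between CF and non-CF. LRFN4, which lies inside PC on the other strand, differed by 0.09 (SE 0.0806).

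**Figure D3:**
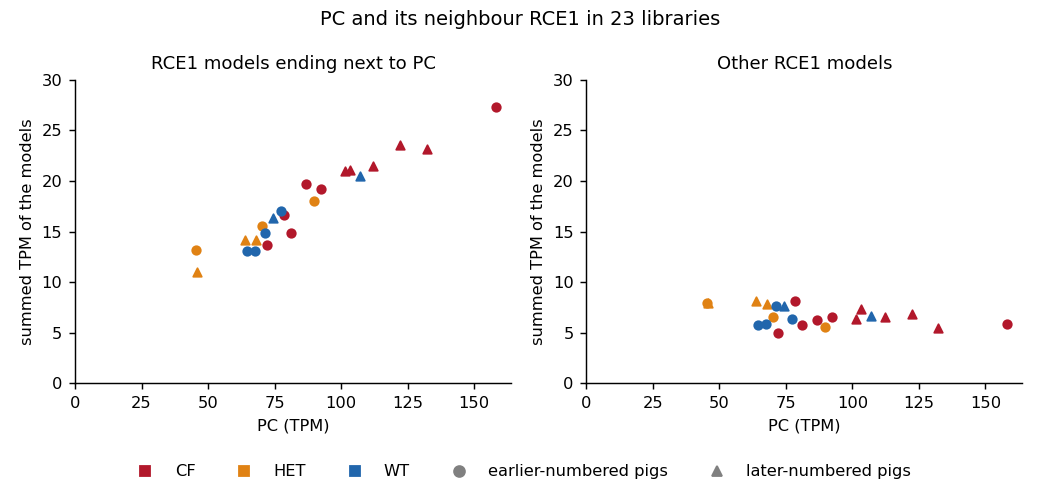
Summed TPM of RCE1 transcript models (vertical axes) against PC TPM (horizontal axes) in 23 libraries, coloured by label, with circles for earlier-numbered and triangles for later-numbered pigs. The 4 models ending next to PC (left) climb with PC from 11.0 to 27.4 TPM, and the 9 others (right) stay between 5.01 and 8.14 TPM.

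PCK1, the hormone-controlled cytosolic enzyme, varied most among the members. The gene lies at chr17:57930507-57936523 (plus strand). Its CF libraries ranged from 159 to 1080 CPM with a median of 399, its HET libraries from 155 to 1111 with a median of 329 and its WT libraries from 108 to 405 with a median of 264. Over all 23 libraries the highest was 10.3 times the lowest, and the coefficient of variation was 72.3%, against 14.9% for GLUL and 16% for GLUD1. The spread was concentrated in 4 libraries above 900 CPM (CF2, CF3, CF5 and HET15), all from earlier-numbered pigs, while the next highest library held 535 CPM. Among later-numbered pigs the range was 155 to 535 CPM.

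For PCK1, CF and non-CF libraries overlapped over nearly their whole range, and 6 of 11 CF libraries were above the non-CF median. The log2 fold change was 0.54 (SE 0.357, interval -0.19 to 1.27, edgeR adjusted p = 0.541). Against WT it was 0.88 (interval -0.03 to 1.80, adjusted p = 0.375) and against HET 0.26 (interval -0.63 to 1.15, adjusted p = 0.88). These intervals admit both no difference and a more than doubled level. HET15 carried much of the HET value: without it, CF against HET was 0.86 and HET against WT fell from 0.62 to 0.03. Without CF5, CF against HET was 0.08. CF against non-CF ran from 0.36 without CF5 to 0.88 without HET15, and its adjusted p from 0.749 to 0.163.

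The bases upstream of the PCK1 start are shown because the cAMP response element, the site through which glucagon and acid signals are known to act on this gene, is read there. Of the searched motifs (TGACGTCA, the full element, its variant TTACGTCA, its core TGACG, the TATA box core TATAAA and CCAAT, each on both strands), the capitals mark TGACGTCA, which overlaps TGACG on both strands. The 250 bases at chr17:57930257-57930506 (RefSeq genome Sscrofa11.1, plus strand) precede the start of the longer model, and the leading model by TPM starts 48 bases further on.
PCK1: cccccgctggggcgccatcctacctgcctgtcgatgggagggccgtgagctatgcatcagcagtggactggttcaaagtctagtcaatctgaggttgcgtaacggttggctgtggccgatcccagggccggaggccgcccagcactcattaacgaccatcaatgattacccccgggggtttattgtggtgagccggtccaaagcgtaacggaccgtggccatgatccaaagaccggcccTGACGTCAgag
The full element lies 11 to 4 bases before that start. It was held by 1.7% of 19555 windows of the same length upstream of annotated genes, TTACGTCA by 0.547%, TGACG by 19.6%, TATAAA by 9.77% and CCAAT by 31.9%. A match is a description of the letters and no measure of binding.

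PCK2, the mitochondrial form, was steadier than PCK1. In CF libraries it ranged from 123 to 302 CPM with a median of 206, in HET libraries from 154 to 215 with a median of 183, and in WT libraries from 125 to 253 with a median of 171. In 9 of 11 CF libraries it was above the non-CF median of 176 CPM, yet 21 of the 23 libraries lay in the range that both groups share. Its log2 fold change was 0.20 (SE 0.121, interval -0.05 to 0.44, edgeR adjusted p = 0.504). By TPM, PCK1 exceeded PCK2 in 18 of 23 libraries, and its share of their sum ran from 41.7% to 84.0% with a median of 60.8%.

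The 2 annotated PCK2 transcripts start 546 bases apart and have different first exons. The upstream first exon holds 204 bases and opens a transcript with 1923 coding bases (NM_001161753.1). The downstream one holds 94 bases, and its transcript has 1521 coding bases (XM_021098318.1). The bases before each start are shown because the mean shares of the transcripts differed between CF and non-CF libraries, a call that depended on the libraries used. Both lie on the minus strand of chromosome 7, at chr7:75197614-75197863 and chr7:75197068-75197317 (RefSeq genome Sscrofa11.1), and capitals mark CCAAT.
PCK2 upstream start: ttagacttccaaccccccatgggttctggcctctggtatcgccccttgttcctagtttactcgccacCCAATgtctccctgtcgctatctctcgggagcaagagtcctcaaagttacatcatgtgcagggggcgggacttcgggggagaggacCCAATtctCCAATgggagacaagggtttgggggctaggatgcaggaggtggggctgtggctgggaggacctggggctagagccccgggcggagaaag
PCK2 downstream start: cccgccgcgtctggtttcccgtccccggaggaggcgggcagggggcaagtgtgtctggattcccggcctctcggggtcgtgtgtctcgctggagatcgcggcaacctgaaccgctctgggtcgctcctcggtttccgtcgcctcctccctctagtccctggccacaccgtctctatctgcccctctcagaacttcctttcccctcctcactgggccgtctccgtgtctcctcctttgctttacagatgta
The upstream window holds CCAAT at 3 places, beginning 183, 97 and 89 bases before the start, and the downstream window holds none of the 5 searched motifs.

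The upstream transcript made up 66.6% to 89.0% of PCK2 TPM in CF libraries with a median of 74.5%, 59.9% to 80.7% in HET with a median of 69.7%, and 61.5% to 76.9% in WT with a median of 67.0%. The CF mean was 77.3% ± 7.35 (SD, n = 11) and the non-CF mean 68.8% ± 7.03 (n = 12). The difference was 8.53 percentage points (two-sided permutation test, p = 0.0108, adjusted over the 4 shares tested p = 0.0434). The share of all genes with several transcripts that would reach such a p was not computed. In TPM, the upstream transcript stood at 76.1 ± 17.7 in CF and 61.4 ± 16.6 in non-CF libraries and the downstream one at 22.2 ± 8.81 and 27.3 ± 6.38. Within the earlier-numbered pigs the difference was 11.6 points (exact permutation test, p = 0.0105) and within the later-numbered pigs 4.61 points (exact permutation test, p = 0.413), and the difference between the sets was not tested. With 1 library left out at a time, the difference ran from 7.36 to 9.61 points and the adjusted p stayed under 0.05 in 12 of 23 cases. It was lost without CF2, CF3, CF5, CF6, CF9, HET13, HET19, HET21, WT17, WT18 or WT22.

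**Figure D4:**
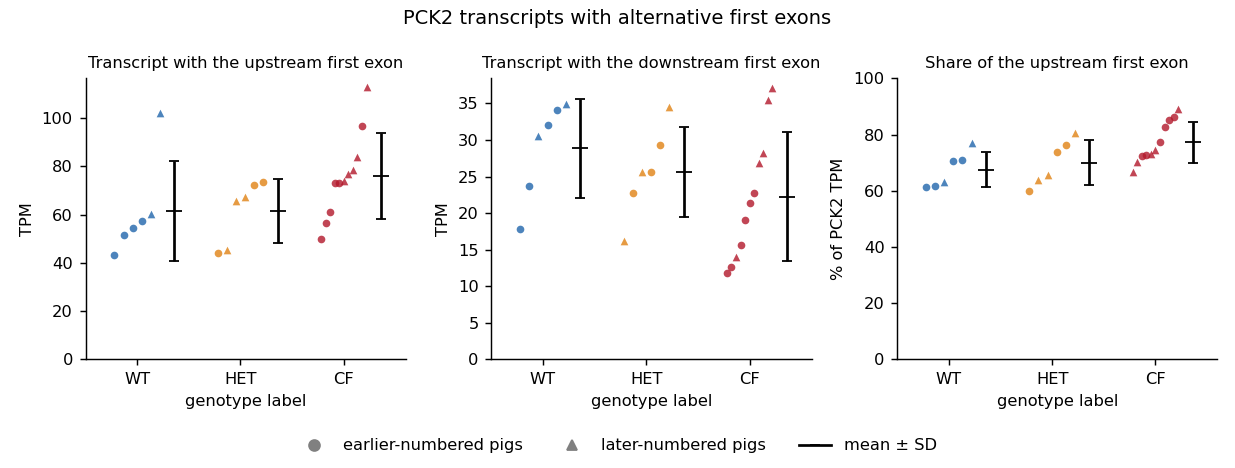
TPM of the PCK2 transcript with the upstream first exon (left) and of the one with the downstream first exon (middle), and the upstream share of PCK2 TPM in percent (right), by genotype label, with 1 point per pig and the mean ± SD beside each group. Circles are earlier-numbered and triangles later-numbered pigs; the share averages 77.3% in CF, 70.1% in HET and 67.5% in WT, and the groups overlap.

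The other 3 members with several transcripts gave no such difference. The leading transcript held 65.3% ± 8.82 of PCK1 TPM in CF and 68.6% ± 3.98 in non-CF libraries (permutation test, p = 0.292). For SLC37A4, which has 18 annotated models, the leading model held 73.4% ± 7.09 and 74.9% ± 3.77 (permutation test, p = 0.536). Of GLUL, with 4 models, it held 51.7% ± 2.99 and 50.9% ± 3.28 (permutation test, p = 0.539).

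FBP1, at chr10:27588609-27622225, was at nearly the same level under each label. In CF libraries it ranged from 161 to 320 CPM with a median of 244, in HET libraries from 201 to 306 with a median of 241, and in WT libraries from 191 to 332 with a median of 244. The CF libraries fell on both sides of the non-CF median, 6 above and 5 below. The log2 fold change was -0.01 (SE 0.111, interval -0.24 to 0.22, edgeR adjusted p = 0.983).

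G6PC, at chr12:19965885-19975783, acts last in the pathway. It ranged from 257 to 823 CPM in CF libraries with a median of 511, from 356 to 638 in HET libraries with a median of 520, and from 238 to 657 in WT libraries with a median of 514. The highest libraries, CF7 and CF8, were both CF, but the medians of the labels were close and 5 of 11 CF libraries were above the non-CF median. CF against non-CF gave a log2 fold change of 0.16 (SE 0.164, interval -0.18 to 0.50, edgeR adjusted p = 0.73), with 0.06 in earlier-numbered and 0.24 in later-numbered pigs, and 0.09 (without CF7) to 0.23 (without CF6) with 1 library left out.

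SLC37A4, at chr9:46247278-46254068, supplies G6PC with its substrate. It ranged from 171 to 340 CPM in CF libraries with a median of 239, from 190 to 352 in HET libraries with a median of 260, and from 164 to 313 in WT libraries with a median of 252. Here 8 of 11 CF libraries were below the non-CF median, all within the non-CF range. The log2 fold change was -0.08 (SE 0.124, interval -0.33 to 0.18, edgeR adjusted p = 0.85), and ran from -0.14 (without CF7) to -0.03 (without HET20) with 1 library left out. Pig number moved with this gene more than genotype label did: non-CF libraries held 222 ± 40.0 CPM (SD, n = 7) in earlier-numbered and 302 ± 39.4 (n = 5) in later-numbered pigs, a fitted log2 difference of 0.45, given as a description since the sets were seen from these libraries.

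GLUD1, at chr14:87968850-88005375, ranged from 453 to 724 CPM in CF libraries with a median of 532, from 507 to 712 in HET libraries with a median of 625, and from 364 to 686 in WT libraries with a median of 597. CF libraries sat low within the shared range, 8 of 11 below the non-CF median, although CF9 was the highest of all. In later-numbered pigs 4 of 5 CF libraries were below the non-CF median of their set, and in earlier-numbered pigs 3 of 6. The log2 fold change was -0.08 (SE 0.0968, interval -0.28 to 0.11, edgeR adjusted p = 0.766), with -0.01 in earlier-numbered and -0.18 in later-numbered pigs.

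GLUL, at chr9:123751551-123762575, was the least variable member by CPM over all 23 libraries. GLUD1 varied less in CF libraries (coefficient of variation 15.3% against 17.9%) and in later-numbered pigs (13.2% against 15.1%). GLUL ranged from 273 to 461 CPM in CF libraries with a median of 316, from 267 to 375 in HET libraries with a median of 332, and from 292 to 354 in WT libraries with a median of 313. The 4 highest libraries (CF1, CF9, CF7 and CF4) were CF, while 5 of 11 CF libraries were above the non-CF median of 316. Its log2 fold change was 0.11 (SE 0.0838, interval -0.06 to 0.29, edgeR adjusted p = 0.602).

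Between single labels, 0 of the 8 members passed the adjusted threshold in edgeR, DESeq2 or limma-voom. Of all genes, edgeR called 0.349% in CF against WT, 0% in CF against HET and 0.00478% in HET against WT. At an unadjusted p under 0.05 PC was the 1 member counted when CF was set against WT (background 14.1%) or HET (9.89%), and 0 members were counted between HET and WT (7.99%). No member's CF effect differed between the sets of pigs by the interaction test, with 0 members at an adjusted p under 0.05 against 0.0191% of all genes, and 0 at an unadjusted p under 0.05 against 10.1%. With 1 library left out, the CF against non-CF value of PCK2 moved as far as 0.13 (without CF9), that of GLUL to 0.07 (without CF1) and that of GLUD1 to -0.13 (without WT12). The contrasts with CF share the CF libraries, so their values are not independent.

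The other genes of the pathway were taken from lists of known function. Of 20 enzymes that gluconeogenesis shares with glycolysis or that feed it, 18 passed the filter (FBP2 and G6PC2 did not). In CF libraries 18 of 18 had lower fitted values, with a median log2 fold change of -0.22, against -0.000517 over all genes. The 18 enzymes were read in the same libraries, so their values are not independent. Just 1 of them fell past the adjusted threshold, GK, the kinase that brings glycerol into the pathway, from 167 ± 23.2 CPM (n = 12) in non-CF to 132 ± 14.4 (n = 11) in CF libraries (log2 fold change -0.34, SE 0.0764, edgeR adjusted p = 0.0479). All 11 CF libraries were below its non-CF median. Of all genes, 0.105% were called lower. GAPDH, the triose phosphate dehydrogenase, gave -0.36 (adjusted p = 0.138), LDHB, a lactate dehydrogenase subunit present at about 1 CPM, -0.61 (0.208), the phosphoglycerate mutase PGAM1 -0.24 (0.257) and the cytosolic malate dehydrogenase MDH1 -0.30 (0.264). All 18 stayed on the lower side under each normalization. In the earlier-numbered pigs alone 17 of 18 were lower with a median of -0.14, and in the later-numbered pigs alone 17 of 19 with a median of -0.34 and 2 called lower, in a fit that called 219 of 20882 genes lower.

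GK is a call near its limit. It was -0.32 against WT (edgeR adjusted p = 0.108) and -0.36 against HET (adjusted p = 0.219), with no call against either label alone. Its adjusted p exceeded 0.05 with 18 of the 23 libraries left out singly, at most 0.0942, and stayed below only without CF4, CF9, HET13, HET15 or WT12. Its log2 fold change ran only from -0.37 to -0.31 in those fits. In the joint fit with the set of pigs, GK gave -0.24 (edgeR adjusted p = 0.309) in earlier-numbered pigs. In later-numbered pigs it gave -0.46 (adjusted p = 0.0366, where 1.07% of all genes were called). The difference between these effects had an unadjusted p of 0.144 and an adjusted p of 0.641 in edgeR.

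Carriers of substrates and glucose did not move in 1 direction. Of 14 tested, 8 were higher and 6 lower with a median log2 fold change of 0.01, and 0 passed the adjusted threshold, whereas DESeq2, which called 2.32% of all genes, called 1 higher. In the later-numbered pigs alone 5 were higher and 9 lower (median -0.13), with 1 called lower where 219 of 20882 genes were. SLC2A2, the glucose transporter that lets newly made glucose leave the cell, was at 1640 ± 496 CPM (n = 11) in CF and 1030 ± 299 (n = 12) in non-CF libraries (log2 fold change 0.66, SE 0.175, edgeR adjusted p = 0.0769), and 10 of 11 CF libraries were above the non-CF median. In a joint fit with the set of pigs, the fitted difference of SLC2A2 was 0.99 (SE 0.204, edgeR adjusted p = 0.0383, where 0.339% of all genes were called) in earlier-numbered and 0.19 (SE 0.232, adjusted p = 0.781) in later-numbered pigs, and the difference between these effects had an unadjusted p of 0.0167 and an adjusted p of 0.363. The earlier-numbered call was lost when those pigs were fitted alone, where 0 of 21038 genes were called. The oxoglutarate carrier SLC25A11 gave -0.20 (adjusted p = 0.305), the pyruvate carrier subunit MPC2 -0.24 (0.39), the aspartate-glutamate carrier SLC25A13 -0.15 (0.538) and the sodium-glucose cotransporter SLC5A1 -0.19 (0.692). By set, MPC2 gave -0.00709 in earlier-numbered and -0.499 in later-numbered pigs.

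In the list of ammonia production and transport, 12 of 14 genes were tested (SLC25A18 and CA2 had no symbol in the table), 4 higher and 8 lower, and 0 passed the adjusted threshold. GLS2, the liver-type glutaminase, was at 4.3 ± 1.05 CPM (n = 11) in CF and 5.16 ± 0.956 (n = 12) in non-CF libraries (log2 fold change -0.26, edgeR adjusted p = 0.375). The mitochondrial glutamate carrier SLC25A22 gave -0.27 (0.261), the membrane carbonic anhydrase CA4 -0.27 (0.361) and the sodium-proton exchanger SLC9A3 0.19 (0.377). By set, SLC9A3 gave -0.03 in earlier-numbered and 0.45 in later-numbered pigs, and the later-numbered pigs alone had 1 gene of this list called higher, in a fit that called 254 of 20882 genes higher.

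Among 20 regulators, 14 were higher and 6 lower, with a median log2 fold change of 0.11, and 2 rose past the adjusted threshold, against 0.244% of all genes called higher. CREB1, the factor that binds the cAMP response element, was at 89.3 ± 10.4 CPM (n = 11) in CF and 71.5 ± 4.99 (n = 12) in non-CF libraries (log2 fold change 0.32, SE 0.059, edgeR adjusted p = 0.0197). FOXO1, the insulin-restrained activator of PCK1 and G6PC, was at 74.9 ± 11.0 and 61.1 ± 3.99 CPM (0.30, SE 0.0669, adjusted p = 0.0481). In both genes 11 of 11 CF libraries were above the non-CF median. Against single labels neither call held: CREB1 gave 0.31 against WT (edgeR adjusted p = 0.0588) and 0.33 against HET (0.175), and FOXO1 0.35 (0.0552) and 0.24 (0.356). Both also lost the call on log2(TPM + 0.5) with limma and when either set of pigs was fitted alone, although CREB1 passed in earlier-numbered pigs in the joint fit (0.38, edgeR adjusted p = 0.0379). With 1 library left out, CREB1 stayed under the threshold in every fit (highest adjusted p 0.0496). FOXO1 exceeded it in 14 of 23 fits, with an adjusted p of up to 0.099 and a log2 fold change of 0.26 to 0.32, and kept the call without CF2, CF3, CF4, CF6, CF10, CF11, HET13, HET15 or HET19.

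Of the other regulators with small p-values, the insulin receptor INSR gave 0.33 (adjusted p = 0.139), the parathyroid hormone receptor PTH1R 0.20 (0.263) and the deacetylase SIRT1 0.12 (0.293). In earlier- and later-numbered pigs PTH1R gave 0.0447 and 0.357, and SIRT1 0.193 and 0.0341. These genes act in many tissues and cell types, and protein, phosphorylation or activity were not measured.

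**Figure D5:**
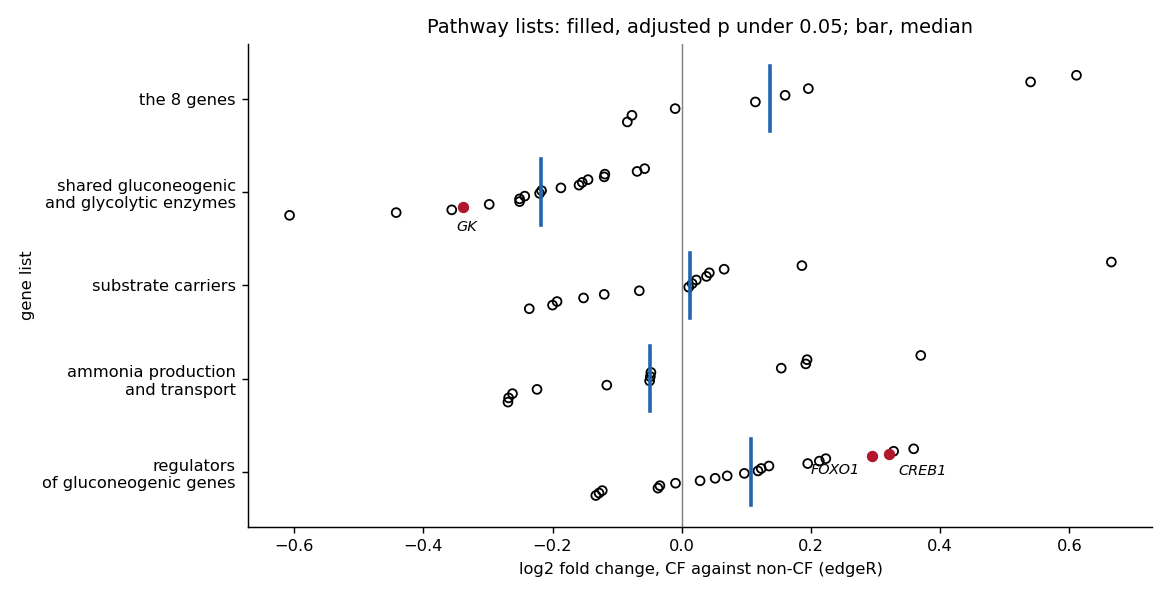
Log2 fold change of CF against non-CF (horizontal axis) for each tested gene of the 8-gene set and of 4 pathway lists, with filled points for an edgeR adjusted p under 0.05 and a vertical bar at each list's median. The 18 shared enzymes all lie below 0, and the filled points are GK on the lower side and FOXO1 and CREB1 on the higher.

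Because these genes work in the proximal tubule, their levels were set against the mean log2 CPM of 12 proximal tubule markers over 23 libraries. Of 8 relations, 7 had an adjusted p under 0.05 in both Pearson's r and Spearman's rho by permutation test. The exception was PCK1 (r = -0.04, p = 0.845, and rho = 0.09, p = 0.687), whose level varied apart from the markers. How many of all genes would give such a relation was not computed, so the count cannot be read as particular to these members. SLC37A4 gave r = 0.70 (p = 0.00021, adjusted p = 0.00156) and rho = 0.66 (p = 0.00093, adjusted p = 0.00372), and PCK2 r = 0.68 (p = 0.00039, adjusted p = 0.00156) and rho = 0.75 (p = 5e-05, adjusted p = 0.0004). PC gave r = 0.62 (p = 0.00172, adjusted p = 0.00275) and rho = 0.62 (p = 0.00216, adjusted p = 0.00524), and GLUL r = 0.63 (adjusted p = 0.00275) and rho = 0.44 (adjusted p = 0.0385). The r of FBP1 was 0.62, of GLUD1 0.53 and of G6PC 0.49.

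The marker level itself was higher in later-numbered pigs (7.97 ± 0.164 log2 CPM, n = 10) than in earlier-numbered ones (7.62 ± 0.24, n = 13), and the relations are therefore also given within each set. Within the earlier-numbered pigs the r of PC was 0.73, of GLUL 0.79 and of SLC37A4 0.50, and within the later-numbered pigs 0.69, 0.62 and 0.43. The r of PCK2 was 0.48 in the earlier and 0.85 in the later set, of FBP1 0.62 and 0.56, of GLUD1 0.42 and 0.31, of G6PC 0.29 and 0.28, and of PCK1 -0.06 and 0.23. By label, the r of PC was 0.79 over CF and 0.30 over non-CF libraries, that of GLUL 0.67 and 0.42, and that of SLC37A4 0.79 and 0.80. Only GLUL in the earlier and only PCK2 in the later set kept an adjusted p under 0.05 by permutation test. Without CF9 and CF1, the libraries farthest from the median marker level, r was 0.41 for PC and 0.39 for GLUL, no longer past the threshold, and 0.75 for SLC37A4 and 0.61 for PCK2.

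The proximal tubule markers leaned only weakly toward CF libraries, and the groups overlapped. Their mean level was 7.83 ± 0.343 log2 CPM in CF (n = 11, lowest 7.22) and 7.71 ± 0.184 in non-CF libraries (n = 12, lowest 7.38). Their summed level ran from 1460 to 2400 TPM in CF and from 1280 to 2150 TPM in non-CF libraries. Of the 12 markers, 8 had higher and 4 lower fitted values in CF libraries, with a median log2 fold change of 0.15, or 0.08 without CF1. AQP1, a water channel of that segment, had the largest fitted difference, 0.68 (edgeR adjusted p = 0.0534). Of these 12 markers 1 was called higher with DESeq2, with the set of pigs as a term, in the later-numbered pigs alone and without CF2, CF4, HET13 or HET15. Of all genes, 315 of 20860 were called higher with DESeq2, 98 of 20921 with the set as a term, 254 of 20882 in the later-numbered pigs and 80 to 128 in those leave-out fits. Their median was 0.16 in the earlier-numbered and 0.25 in the later-numbered pigs alone. Markers of the loop and distal tubule leaned the other way, with 7 of 8 lower, 0 called by edgeR over all pigs and a median of -0.16. Their summed levels were 584 to 839 TPM in CF and 564 to 1380 in non-CF libraries. In the earlier-numbered pigs alone 4 of those 8 were lower (median -0.08, 0 called), and in the later-numbered pigs alone 7 of 8 (median -0.34, 4 called lower), while DESeq2 called 3 lower over all pigs. Of all genes, 219 of 20882 were called lower in the later-numbered pigs alone and 169 of 20860 by DESeq2. No defining marker of either list was at 0, and the part of these marker differences in the values of PC, PCK2, SLC2A2, GK or the shared enzymes was not tested.

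The members also varied with each other. Of their 28 pairs, 26 had a positive r over 23 libraries and 13 had an adjusted p under 0.05 in both r and rho by permutation test. The share of all gene pairs with such values was not computed, so these counts cannot be read as particular to the members. SLC37A4 and GLUD1 were the closest pair, with r = 0.78 and rho = 0.78 (adjusted p = 0.00028 and 0.0007), 0.75 and 0.79 within the earlier and the later set, and r = 0.73 without the 2 libraries at the extremes of SLC37A4. PCK2 and G6PC followed with r = 0.72 and rho = 0.61 (adjusted p = 0.00168 and 0.00964), with r = 0.68 without 2 libraries, and with 0.78 in the earlier but 0.41 in the later set. PCK1 was related to G6PC (r = 0.49, rho = 0.49, adjusted p = 0.0343 and 0.0435, with r = 0.66 and 0.33 by set) and to no other member in both measures. Other pairs also changed between the earlier and the later set, such as G6PC and GLUD1 (r = 0.717 and 0.123) and FBP1 and GLUL (0.175 and 0.885).

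Across the 20921 genes, up to 3 with the pattern most like each member were named by Pearson's r of log2 CPM over the 23 libraries, which share depth and set of pigs. These r are the highest of all genes, chosen as such, and are given without a test. PCK1 was followed by SBSPON (0.81, with 0.857 in earlier-numbered and 0.496 in later-numbered pigs), LOC100738196 (0.80) and the tight junction gene OCLN (0.74). For PCK2 they were AGMAT, which hydrolyses agmatine (0.93), the fatty acid oxidation gene ECH1 (0.91) and the hydrolase gene BPHL (0.91). For FBP1 they were catalase (CAT, 0.79), TMBIM6 (0.77) and SUMF1 (0.77).

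G6PC was most like KIAA1191 (0.80), the monocarboxylate transporter family gene SLC16A6 (0.80) and HHLA2 (0.74). Within the earlier and the later set the r of KIAA1191 was 0.88 and 0.472, of SLC16A6 0.795 and 0.67, and of HHLA2 0.775 and 0.45. SLC37A4 was most like the connexin gene GJB1 (0.90) and AP3S2 (0.88). After RCE1, PC was most like PINK1, a kinase of mitochondrial quality control (0.82), and WISP1 (0.82). GLUD1 was followed by ETFDH, which feeds electrons from fatty acid oxidation into the respiratory chain (0.89), the brush border scaffold PDZK1 (0.89) and the mitochondrial protease AFG3L2 (0.88). GLUL was followed by the splicing factor RBM17 (0.79), POP4 (0.77) and INTS5 (0.75).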

How the data were processed

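RNA of the kidney cortex was sequenced from 23 newborn pigs on an Illumina NovaSeq, from TruSeq Stranded Total RNA libraries with RiboZero. Reads were pseudoaligned to Sscrofa11.1 transcripts with kallisto by the authors, and the estimated counts they deposited are per transcript and not normalized. The TPM values the authors deposited are scaled by effective length. Here, estimated counts of 77689 transcripts were summed per symbol and rounded. Genes were filtered with filterByExpr, normalized by TMM and tested with edgeR 4.0.16 (R 4.3.3; quasi-likelihood, Benjamini-Hochberg). CPM used TMM library sizes, and log2 CPM a prior count of 2. The 3 labels were compared in a fit of all 23 libraries. Permutation tests used 100000 resamples, or all arrangements where called exact. Alternatives used DESeq2 1.42.0, limma 3.58.1, other normalizations, no filter, log2(TPM + 0.5), EIF1AY as a covariate, each set of pigs and each library left out. The steps were tested on simulated data. Python 3.11.15, numpy 2.4.6, scipy 1.17.1, pandas 2.3.3 and matplotlib 3.10.9 were used.

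The members, gene lists and tests were chosen with earlier results of these data known. Genes named are the members, CFTR, for each pathway list the genes past the adjusted threshold and up to 5 with the smallest p, the proximal tubule markers as a list, and for each member the 3 genes of highest r; LRFN4 was named after its position was seen. Genes withheld for evaluation that these rules name are not reported here. A list of cell type markers was used for proximal tubule, loop and distal tubule, podocyte, collecting duct, endothelium, nephron progenitor, interstitium, immune and erythroid genes. The median log2 fold changes of the last 7 were 0.04, 0.02, -0.05, -0.01, 0.01, -0.07 and -0.12. At these depths 3 counts correspond to 0.0567 to 0.0912 CPM, which covers counting error only. P-values measure the spread between pigs, whose sex and litter the labels do not give.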

Additional observations from a re-analysis of the deposited data

Results flagged for a closer look

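One result stood apart among 16 groups of libraries examined for a single value far from the others, a rule that chance alone meets in about 1 of 20 groups. PCK1 in HET15 was 1111 CPM, and the nearest HET library held 382 CPM. That gap was 0.763 of the group's whole range, above Dixon's 95% critical value for 6 libraries. Of 8 tests for a CF effect that differs between earlier- and later-numbered pigs, 0 had an adjusted p under 0.05 in edgeR.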

How the results depend on the processing

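No paired analysis was possible because the groups share no replicate number: each number names 1 pig. The count of members called between CF and non-CF was 0, and 1 with DESeq2 and in the later-numbered pigs alone, PC both times; leaving out single libraries it ran from 0 to 1. The count of relations to proximal tubule markers, 7, became 1 in the earlier-numbered and 1 in the later-numbered pigs alone, and the count of differing transcript shares, 1, became 0 in the later-numbered pigs alone and ran from 0 to 1 with single libraries left out. Log2 differences that changed sign were small. For FBP1, CF against WT was 0.000576 with DESeq2 and 0.000563 with median-of-ratios scaling, HET against WT -0.0143 with upper-quartile scaling and -0.0196 with the number set (earlier or later) as a term, and the interaction 0.00634 without the filter. For HET against WT, G6PC gave -0.0144 with upper-quartile scaling, -7.06e-06 without the filter and -0.0477 with the number set, and SLC37A4 -0.0116 with the number set. For r with the markers, PCK1 gave 0.227 in later-numbered pigs and 0.0474 without 2 libraries, and the GLUL share difference was -0.314 points by estimated counts. With single libraries left out, FBP1 ran from -0.053 to 0.0394 (CF against non-CF), -0.0648 to 0.0912 (CF against WT), -0.0734 to 0.0512 (CF against HET) and -0.0572 to 0.113 (HET against WT). G6PC ran from -0.135 to 0.0948, SLC37A4 from -0.0181 to 0.168 and GLUL from -0.00369 to 0.0933 (HET against WT), and GLUD1 from -0.12 to 0.034 and SLC37A4 from -0.122 to 0.0418 (CF against WT). The cause was not tested for any of these. CREB1 lost its call in the earlier-numbered pigs alone (0.382, adjusted p 0.152), the later-numbered alone (0.253, 0.115) and on log2(TPM + 0.5) with limma (0.269, 0.271), and FOXO1 and GK lost theirs with limma-voom (both 0.0614), with EIF1AY as a covariate (0.0524 and 0.0587), on log2(TPM + 0.5) (0.173 and 0.0863) and in the earlier-numbered pigs alone (0.382 and 0.48), FOXO1 also without the filter (0.0519) and in the later-numbered pigs alone (0.0662). Over these alternatives and DESeq2, FOXO1 kept a log2 fold change of 0.249 to 0.339 and GK of -0.481 to -0.237. The number of genes edgeR called between CF and non-CF was 73, and 148 with the number set as a term, 484 with DESeq2, 46 with limma-voom, 45 with EIF1AY, 8 on log2(TPM + 0.5), 473 and 0 in the later- and earlier-numbered pigs alone, and 17 (without HET21) to 203 (without CF4) with single libraries left out. The number called between CF and WT was 73, and 579 with DESeq2, 186 with the number set as a term, 139 with upper-quartile scaling, and 20 (without WT12) to 203 (without CF4) with single libraries left out; between CF and HET it was 0, and 65 with DESeq2. The lowest estimated count of a member in a library was 4369, which leaves counting error small beside the spread between pigs.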
